A study of Mus musculus with 12 samples.

Results

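The effect of deleting Stat3 in mouse oesophageal epithelium that already carried active IKKβ was read from 6 of the 12 libraries of the study. These were 3 libraries of the active IKKβ group (labelled Ikkβca), which carried ED/L2-Cre+ and the allele ROSA26-StopFL-Ikk2ca+/L, and 3 of the combined group (labelled Ikkβca+Stat3KO), which carried these and also Stat3L/L. Every difference below is the combined group minus the active IKKβ group unless another is named, and a positive value means higher with floxed Stat3. Cre and the active allele were present on both sides, and the named alleles differ in Stat3L/L, for which the active IKKβ genotype has no entry. The other 6 libraries were 3 with Stat3 loss alone (labelled Stat3KO), which carried ED/L2-Cre+ and Stat3L/L, and 3 of the Control group, which carried ROSA26-StopFL-Ikk2ca+/L and Stat3L/L without Cre. All mice were C57BL/6 and 6 weeks old, and polyA RNA came from epithelium peeled mechanically off the stroma. Of 23337 genes in the files, 14134 passed a filter on low counts and were tested.

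STAT3 is a transcription factor that JAK kinases phosphorylate below receptors of the IL-6 family, and it induces survival, acute phase and antimicrobial genes as well as its own inhibitor SOCS3. IKKβ, encoded by Ikbkb (also called Ikk2), phosphorylates IκB proteins and so releases NF-κB, whose targets include chemokines, cytokines and feedback inhibitors. In stratified squamous epithelium basal keratinocytes divide, and their daughters leave the cell cycle, turn on Krt4 and Krt13 in the oesophagus and later build a cornified envelope. In the ROSA26 allele Cre removes a stop cassette and so switches on an active form of IKK2. Dividing cells load the MCM helicase onto replication origins before S phase, largely under E2F factors, and switch on mitotic genes later, in G2. ED/L2 is an Epstein-Barr virus promoter that the labels describe as driving Cre in epithelial cells of the oesophagus, so other cells left in the tissue are not its targets.

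The 6 libraries held 14.8 M to 25.6 M counts, and levels are given as CPM, counts scaled to a common library size with TMM factors. Levels summed over a gene list were scaled by library totals alone, without these factors. The squamous markers Krt5, Krt14, Krt4, Krt13 and Trp63 were abundant in all 6. Transcripts read as female in replicate 1 and as male in replicates 2 and 3 of both groups. Krt4 and Krt13 together took 5.06, 13.8 and 12.8% of counts in active IKKβ replicates 1 to 3 and 11.6, 4.05 and 13.4% in the combined group, so that 1 library of each group was poor in suprabasal transcripts. Gastric genes summed to 4000 CPM in active IKKβ replicate 1 and to at most 26.5 CPM in the other 5 libraries. Skeletal muscle genes summed to 1360, 623 and 80.5 CPM with active IKKβ and to 59.1, 403 and 63.1 CPM in the combined group. No label ties each library to its own mouse, so p-values measure the spread between these libraries, which may be technical. Errors after ± are standard errors (SE) of log2 fold changes, with n = 3 libraries in each group, and a value that follows CPM levels in parentheses is a log2 fold change.

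Neither targeted gene separated the groups by its total count. Stat3 (chr11:100885098-100939540, minus strand, mm10) had 158, 222 and 239 CPM with active IKKβ and 169.8, 154 and 194 CPM in the combined group. The groups overlapped, since active IKKβ replicate 1 lay within the combined range. The log2 fold change was -0.26 ± 0.15 (edgeR adjusted p = 0.598, exact two-sided permutation p = 0.3, where 3 libraries against 3 allow no p below 0.1). A count summed over all exons does not tell recombined from intact Stat3 transcripts. Ikbkb had 97.7, 84.5 and 94 CPM with active IKKβ and 89.7, 83.4 and 97 CPM in the combined group, a log2 fold change of -0.03 whose sign turned under library totals and without active IKKβ replicate 1 or combined replicate 2. Of the other STAT factors, Stat5b stood at 0.09 on the log2 scale, with overlapping libraries. Stat4 was lower without overlap, at 0.851, 0.773 and 0.559 CPM against 0.05, 0.464 and 0.0523 CPM, levels below 1 CPM in all 6.

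Across all tested genes, edgeR's quasi-likelihood test with Benjamini-Hochberg adjustment called 0 genes higher and 0 lower at an adjusted p below 0.05, and its smallest adjusted p was 0.175. At an unadjusted p below 0.05 there were 1396 genes (9.88%), 606 higher (4.29%) and 790 lower (5.59%). The DESeq2 Wald test on the same counts called 131 genes (0.927%), 53 higher (0.375%) and 78 lower (0.552%). Of these, 129 had libraries that did not overlap, meaning that the lowest library of the higher group exceeded the highest of the lower group. Non-overlap itself was met by 1007 genes on the higher side (7.12% of those tested) and by 1066 on the lower side (7.54%). These shares are the background for the counts of non-overlap below. For DESeq2 calls the background is 0.375% higher and 0.552% lower. The median log2 fold change of all tested genes was -0.01, with 52.3% of genes below 0 and 47.7% above. Leaving out each of the 6 libraries in turn gave 8 to 110 higher and 26 to 116 lower DESeq2 calls, the fewest in both directions without active IKKβ replicate 3 and the most higher ones without active IKKβ replicate 1. In what follows a gene is said to have risen or fallen only where DESeq2 called it, and no gene named here passed edgeR with all libraries.

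Genes of replication and genes of mitosis went opposite ways. Origin licensing and DNA synthesis genes were mostly lower in the combined group, and G2 and mitosis genes were mostly higher. Of the 12 lower genes with the smallest p that met the conditions on level and overlap, 5 were licensing genes (Mcm2, Mcm3, Mcm4, Mcm5 and Orc1) and Dtl and Hells were DNA synthesis genes, and of the 12 higher ones 4 were on the mitosis list (Nusap1, Cenpe, Ccnb2 and Cenpa). In bulk tissue, fewer cells in a phase and less RNA per cell cannot be told apart.

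Promoters of 5 replication genes that fell by DESeq2 are shown because each holds a word that E2F factors are known to bind. They were chosen for holding it, and most windows of these lists do not. The words TTTCCCGC, TTTCGCGC, TTTGCCGC and TTTGGCGC were searched on both strands in the 250 bases before each RefSeq start (GRCm38.p6), which matched 11102 of the 14134 tested genes. At least 1 of them occurred in 7 of 18 licensing genes with a window (38.9%), in 7 of 37 DNA synthesis genes (18.9%), in 2 of 46 mitosis genes (4.35%) and in 3.66% of all tested genes with a window. The last 150 bases before the start lie at chr1:191575545-191575694 (minus strand) for Dtl, chr4:108579304-108579453 (plus strand) for Orc1, chr8:75109359-75109508 (plus strand) for Mcm5, chr1:128359706-128359855 (minus strand) for Mcm6 and chr19:38930840-38930989 (plus strand) for Hells. The RefSeq starts of Orc1 and Hells lie downstream of the annotated mm10 gene starts, chr4:108579423 and chr19:38930915, so these stretches run into the annotated genes. The marked word of each lies past that annotated start. All are written from 5′ to 3′ on the gene's strand, with every occurrence of these words on either strand in capitals.
Dtl: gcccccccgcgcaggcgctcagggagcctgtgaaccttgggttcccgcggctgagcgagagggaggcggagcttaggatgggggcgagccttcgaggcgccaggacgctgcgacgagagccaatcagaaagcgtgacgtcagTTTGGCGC
Orc1: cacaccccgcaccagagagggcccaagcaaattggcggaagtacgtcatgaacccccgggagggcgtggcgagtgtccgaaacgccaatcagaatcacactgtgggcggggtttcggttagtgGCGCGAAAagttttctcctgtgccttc
Mcm5: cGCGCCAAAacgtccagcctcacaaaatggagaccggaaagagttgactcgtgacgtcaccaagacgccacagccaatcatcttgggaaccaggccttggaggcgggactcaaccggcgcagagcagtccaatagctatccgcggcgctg
Mcm6: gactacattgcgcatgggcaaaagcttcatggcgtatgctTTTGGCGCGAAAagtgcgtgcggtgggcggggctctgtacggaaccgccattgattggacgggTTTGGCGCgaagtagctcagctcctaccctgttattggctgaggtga
Hells: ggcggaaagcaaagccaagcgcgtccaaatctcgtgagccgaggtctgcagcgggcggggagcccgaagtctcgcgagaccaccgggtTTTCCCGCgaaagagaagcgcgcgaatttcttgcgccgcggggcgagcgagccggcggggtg

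In Mcm6 the first capital stretch holds a pair of overlapping words, and the second holds 1 more. Licensing genes with such a word had a median log2 fold change of -1.09, against -0.39 for those without, but among DNA synthesis genes the medians were -0.31 with and -0.42 without, and over all genes 0.02 and -0.01. A match describes these letters only and does not show a bound site. The word TTCCNGGAA, which STAT factors are known to bind, occurred in 0 licensing, 0 DNA synthesis and 0 mitosis windows, in 2 of 30 windows of STAT3 target genes (6.67%) and in 1.2% of all windows.

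Origin licensing starts with ORC, the complex that marks origins, which with Cdc6 and Cdt1 loads the MCM2 to MCM7 ring. Of 23 licensing genes, all of them tested, 13 were lower without overlap (background 7.54%) and 1 was higher (background 7.12%), 8 fell by DESeq2, and the median log2 fold change was -0.58. In all, 18 members were below 0 and 5 above. Orc1, the largest ORC subunit, had 6.33, 3.92 and 7.43 CPM with active IKKβ and 1, 1.57 and 1.26 CPM in the combined group, the largest drop of the list at -2.21 ± 0.37 (DESeq2 adjusted p = 3.35e-05, edgeR adjusted p = 0.175). Its highest combined library lay below its lowest active IKKβ library by more than the range within the combined group.

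Helicase subunits were lower by similar amounts. Mcm3 (chr1:20802968-20820312, minus strand, mm10) had 71.3, 58.4 and 80 CPM with active IKKβ and 25.6, 29.7 and 20.9 CPM in the combined group (-1.46 ± 0.27, DESeq2 adjusted p = 2.23e-04, edgeR adjusted p = 0.218). Mcm2 went from 69.8, 65.9 and 83.2 to 29.4, 33.7 and 20.3 CPM, with a log2 fold change of -1.39. Mcm4 had 64, 57.7 and 80.2 against 29, 34.1 and 27.3 CPM (-1.16). In each of these genes the 3 combined libraries lay well under the lowest active IKKβ library. Mcm5 (-1.31) and Mcm6 (-1.09) also fell by DESeq2, whereas Mcm7 stood at -0.60 without overlap and was not called. Both helicase loaders fell: Cdc6 had 8.75, 6.77 and 9.07 against 3.85, 2.85 and 2.25 CPM (-1.46), and Cdt1 had 44.8, 30.2 and 38.9 against 13.7, 21.7 and 11 CPM (-1.3). Cdc45, which joins the loaded ring when origins fire, stood at -0.58. The only member higher without overlap was Dbf4, the activator of the Cdc7 kinase, with 18.1, 17.4 and 16.7 CPM against 20.7, 23.2 and 28 CPM (0.46, edgeR adjusted p = 0.456).

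Genes of DNA synthesis and nucleotide supply followed the same direction with smaller differences. Of 45 tested, 24 were lower without overlap (background 7.54%) and 0 higher, and 6 fell by DESeq2 (background 0.552%). The median log2 fold change was -0.41, with 41 members below 0. Dtl (chr1:191537356-191575544, minus strand, mm10), the substrate receptor of a ubiquitin ligase that destroys Cdt1 in S phase, had 20.1, 20.4 and 23.1 CPM with active IKKβ and 7.46, 8.24 and 6.43 CPM in the combined group (-1.52 ± 0.22, DESeq2 adjusted p = 1.42e-06, edgeR adjusted p = 0.175). The gap between the groups was wider than the range within either, as the plot of genes by library shows. Hells, a chromatin remodeller of replicating cells, had 27, 21 and 27.6 against 10.5, 8.65 and 8.32 CPM (-1.46). Uhrf1, which guides maintenance DNA methylation, had 49.8, 42.6 and 58.7 against 25.1, 16.9 and 19.8 CPM (-1.29). The G1/S cyclin gene Ccne1 fell by 1.07 on the log2 scale and E2f1, an activator of S phase genes, by 1.03. Ccne2 stood at -1.34 with a DESeq2 adjusted p of 0.0574, just outside the call. Pcna, the sliding clamp of DNA polymerases, had 43.8, 40.9 and 46 against 33.2, 35.4 and 27.8 CPM (-0.44), lower without overlap but not called. Rfc1, the large subunit of the clamp loader, fell by the smallest amount of the called genes here, 0.41 on the log2 scale.

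A pair of genes outside the lists belong to the same stage and were among the smallest p or DESeq2 calls. Ung, which removes uracil from DNA, had 20.5, 18.8 and 22.5 CPM with active IKKβ and 6.21, 7.66 and 4.39 CPM in the combined group (-1.76, DESeq2 adjusted p = 2.73e-05). Timeless, a replication fork protein chosen after its values were seen, had 27.9, 19.1 and 28.1 against 12.5, 9.17 and 7.12 CPM (-1.38, DESeq2 adjusted p = 5.39e-04). Both had combined libraries that all lay below the active IKKβ libraries.

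**Figure D1:**
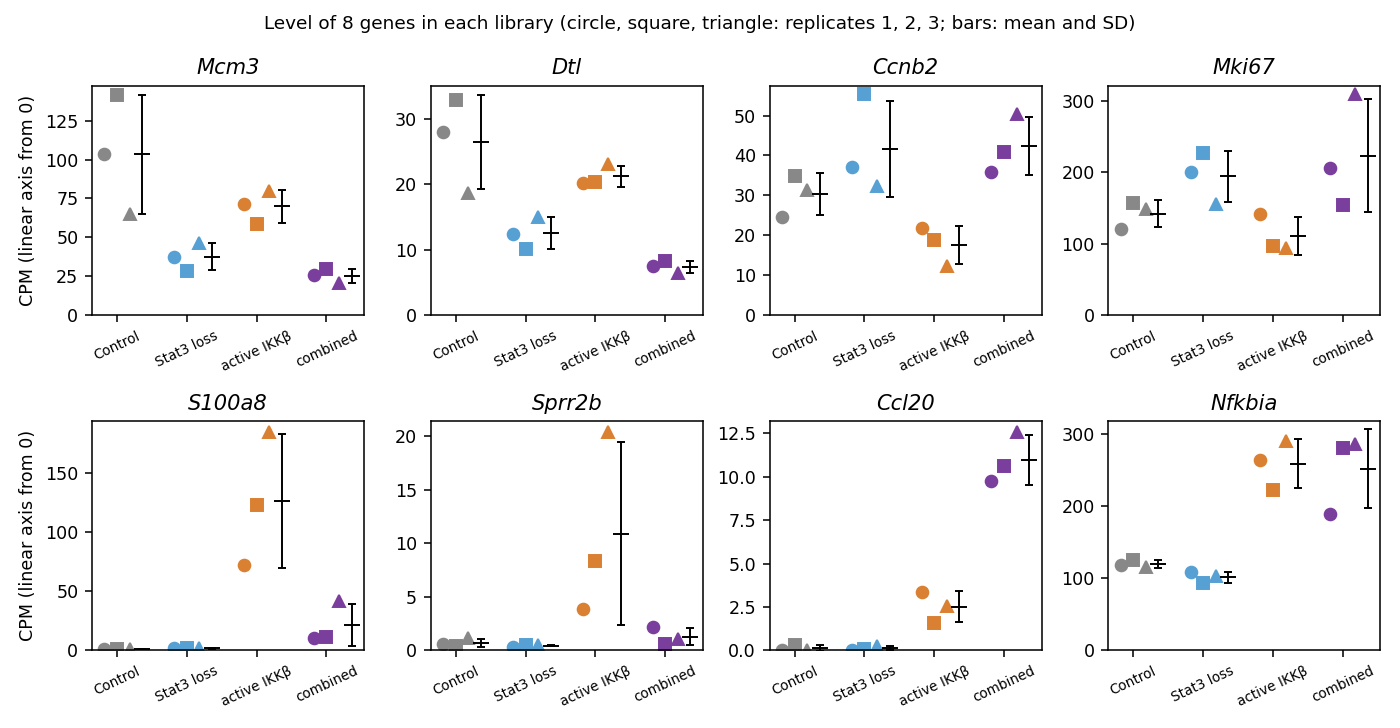
CPM of 8 genes in every library, by group (replicates 1, 2 and 3 as circle, square and triangle), with the mean and standard deviation of 3 libraries beside each group on linear axes from 0. Mcm3 and Dtl are lower in the 3 combined libraries than in the 3 active IKKβ libraries, Ccnb2, Mki67 and Ccl20 are higher, S100a8 and Sprr2b are lower, and Nfkbia overlaps.

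Genes of G2 and mitosis showed the opposite sign almost without exception. Of 57 tested, 44 were higher without overlap (background 7.12%) and 0 lower, 13 rose by DESeq2, and the median log2 fold change was 0.81. The values ran from -0.03 for Cdc25b, a phosphatase that activates CDK1 and the only member below 0, to 1.4 for Cenpa. The sign of Cdc25b turned under library totals and without active IKKβ replicate 1 or combined replicate 2. Ccnb2 (chr9:70407692-70421547, minus strand, mm10), a cyclin partner of CDK1, had 21.8, 18.9 and 12.4 CPM with active IKKβ and 36, 40.8 and 50.3 CPM in the combined group (1.26 ± 0.25, DESeq2 adjusted p = 0.00223, edgeR adjusted p = 0.238). Its lowest library was active IKKβ replicate 3 and its highest combined replicate 3. Ccnb1, the other B-type cyclin, had 8.23, 6.09 and 5.07 against 11.1, 14.6 and 17.9 CPM (1.17).

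Genes of the centromere and spindle were among those that rose. Cenpa, the histone variant of centromeres, had 18.5, 17.2 and 9.63 CPM with active IKKβ and 31.3, 33.5 and 54.8 CPM in the combined group (1.4 ± 0.30, DESeq2 adjusted p = 0.00456, edgeR adjusted p = 0.251). Cenpe, a kinetochore motor, had 25.2, 20.7 and 15 against 45.1, 38.5 and 60.2 CPM (1.24). Nusap1, which bundles spindle microtubules, had 23.2, 15.7 and 12.3 against 36.2, 35.5 and 48.6 CPM (1.23). In all 3 genes active IKKβ replicate 3 was the lowest library and combined replicate 3 the highest. The kinesin Kif2c rose by 1.09 and Prc1, which builds the central spindle, by 1.02 on the log2 scale. Mki67, the proliferation marker Ki-67, had 142, 97.3 and 93.5 against 206, 154 and 309.9 CPM (1.01, DESeq2 adjusted p = 0.0382). Top2a, the topoisomerase that untangles chromosomes, stood at 0.69 with overlapping libraries. Birc5, or survivin, which is also on the list of STAT3 targets, had 23.3, 14.8 and 12.9 against 27, 31.1 and 33 CPM (0.84, not called). Outside the list, the phosphatase gene Cdkn3 stood at 1.14, the spindle gene Psrc1 at 1.01 and D2Ertd750e at 1.23, all 3 called by DESeq2, and Neil3, a DNA glycosylase chosen after its values were seen, at 1.5.

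The size of this difference leaned on the third replicates. Without combined replicate 3 the median of the mitosis list was 0.58 and DESeq2 called 3 of its members, and without active IKKβ replicate 3 the median was 0.68 with 1 member called. Without active IKKβ replicate 1 it was 0.96 with 26 called. Over all 6 omissions 44 to 54 members lay on the higher side without overlap, against 8.49 to 19.9% of all genes. Licensing genes moved less, with 6 to 8 DESeq2 calls and 13 to 16 members lower without overlap, against 10.3 to 18.4% of all genes. DNA synthesis genes had 2 to 6 calls and 24 to 30 members without overlap.

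**Figure D2:**
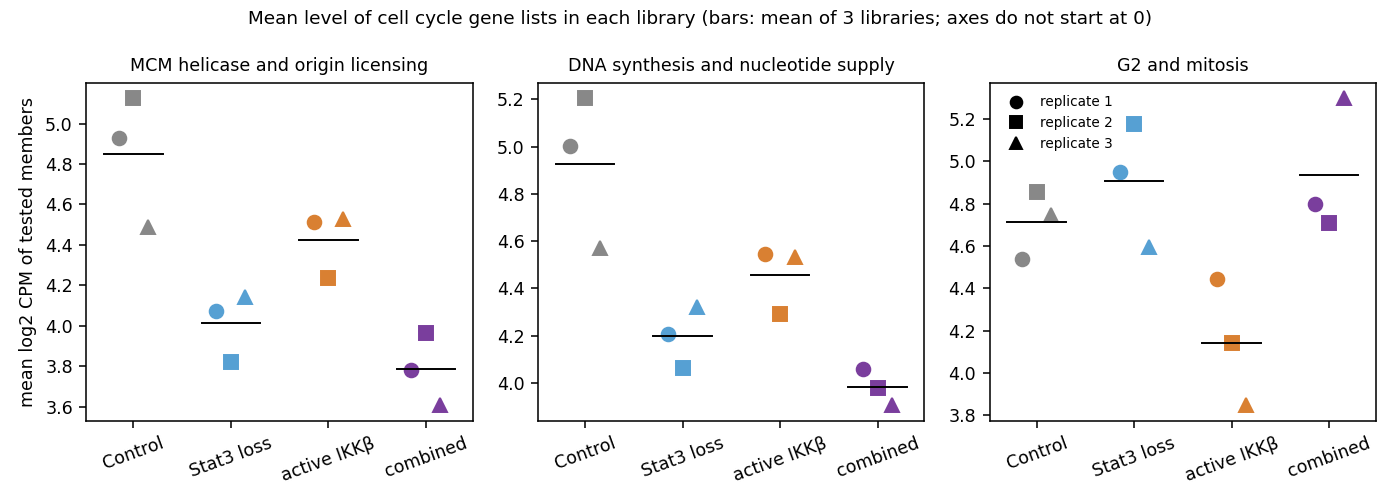
Mean log2 CPM over the tested members of 3 cell cycle lists in each library, by group, with bars at the mean of 3 libraries (axes do not start at 0). In the combined group the licensing genes stand at 3.78, 3.96 and 3.61 against 4.51, 4.24 and 4.53 with active IKKβ, and the mitosis genes at 4.8, 4.71 and 5.3 against 4.44, 4.14 and 3.85, in replicate order.

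Promoters of Ccnb2 and Cdkn3, both called higher by DESeq2, are shown for another pair of words. These are TTTGAA, known as a cell cycle homology region, and CCAAT, which NF-Y binds. The stretch printed for Ccnb2 holds CCAAT alone, and that for Cdkn3 holds both words. TTTGAA occurred on either strand in 17 of 46 mitosis windows (37%) against 12.8% of all windows, and CCAAT in 33 of 46 (71.7%) against 39.9%. Licensing genes also held CCAAT often, in 66.7% of windows. The medians of mitosis genes with and without TTTGAA were 0.90 and 0.79. The stretches, the last 150 bases before the start, lie at chr9:70421555-70421704 (minus strand) for Ccnb2 and chr14:46760391-46760540 (plus strand) for Cdkn3 in GRCm38.p6, with these words in capitals on either strand.
Ccnb2: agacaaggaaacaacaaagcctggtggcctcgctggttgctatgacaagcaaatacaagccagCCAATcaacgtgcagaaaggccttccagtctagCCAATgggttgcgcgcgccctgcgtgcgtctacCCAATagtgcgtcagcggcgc
Cdkn3: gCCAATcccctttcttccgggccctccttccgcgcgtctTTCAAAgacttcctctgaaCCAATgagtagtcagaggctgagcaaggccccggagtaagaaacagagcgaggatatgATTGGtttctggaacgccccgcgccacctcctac

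Stat3 deletion was also measured without active IKKβ, as Stat3 loss minus Control, in 6 libraries that none of the above shares. There the licensing list had a median log2 fold change of -1.01, with 15 of 23 members lower without overlap (background 6.1%), and the DNA synthesis list a median of -0.71, with 31 of 45. The mitosis list stood at 0.21, with 46 of 57 members above 0 and 3 higher without overlap (background 6.96%). Mcm3 had 104, 141 and 65.2 CPM in Control and 37.5, 28.7 and 46.1 CPM with Stat3 loss (-1.47), Dtl had 27.9, 32.8 and 18.6 against 12.4, 10.1 and 15.1 CPM (-1.08), and Ccnb2 had 24.7, 34.9 and 31.5 against 37.2, 55.3 and 32.3 CPM (0.46). The licensing and DNA synthesis medians were negative in both backgrounds, and the mitosis median was larger in the active IKKβ background. The Control group carried Stat3L/L without Cre, so that comparison differs in Cre and in the ROSA26 allele, whereas the contrast within active IKKβ differs in Stat3L/L.

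Whether the 2 differences themselves differ was tested as an interaction. edgeR called 0 genes (smallest adjusted p = 0.837), with 658 genes at an unadjusted p below 0.05 (4.66%, of which 1.92% were higher and 2.74% lower), and DESeq2 called 6 (0.0425%). Of the mitosis genes 12 had a higher interaction at an unadjusted p below 0.05 (background 1.92%), and the median interaction was 0.57. Licensing and DNA synthesis genes had 3 and 4 such members and medians of 0.22 and 0.27. Pbk, a mitotic kinase, had 15.4, 16.4 and 12.5 CPM in Control against 11, 11.4 and 9.05 CPM with Stat3 loss, but 7.85, 6.48 and 7.09 CPM with active IKKβ against 11, 9.29 and 10.4 CPM in the combined group (interaction 1.01, unadjusted p = 0.0012, edgeR adjusted p = 0.9999). Over all 14134 genes the 2 sets of fold changes had the same sign in 59.7%, with a Pearson r of -0.01 and a Spearman rho of 0.29 across genes, which are not independent replicates. Of the 131 genes called by DESeq2 within active IKKβ, 107 had the same sign with Stat3 loss alone, 47 of the 53 higher and 60 of the 78 lower ones, and 26 were called in both. In that contrast edgeR called 0 genes, 7.5% of genes had an unadjusted p below 0.05, and DESeq2 called 0.75%.

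**Figure D3:**
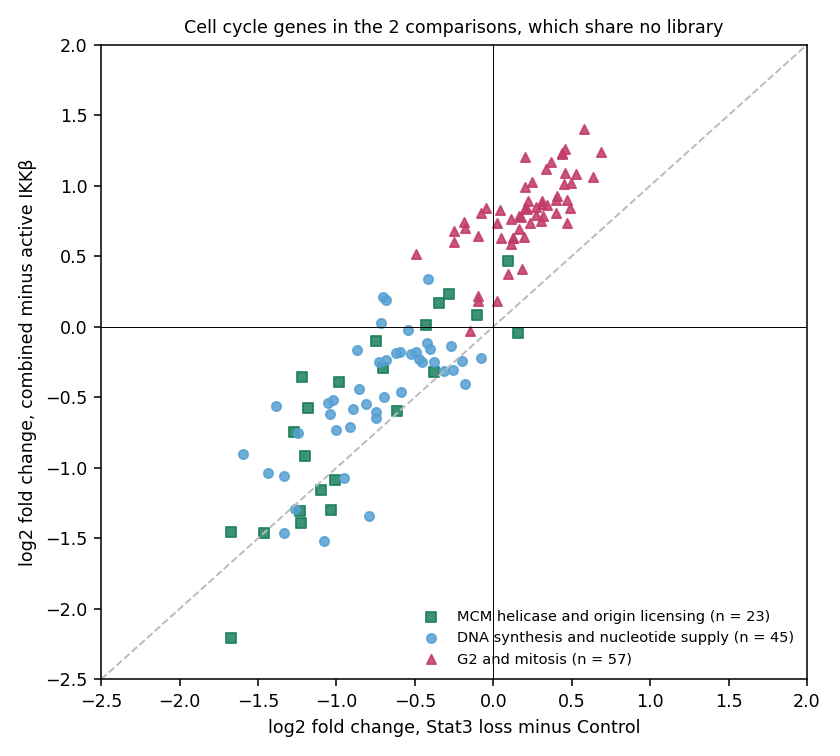
Log2 fold change of the tested members of 3 cell cycle lists, Stat3 loss minus Control on the horizontal axis and combined minus active IKKβ on the vertical axis, 1 point a gene, with the dashed line marking equal values. Most licensing and DNA synthesis genes lie below 0 on both axes, and mitosis genes lie above 0 on the vertical axis except Cdc25b, most of them above the line of equal values.

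In the groups with active IKKβ the levels can also be set beside Control, though these comparisons share libraries with the main one. edgeR called 127 genes higher (0.899%) and 8 lower (0.0566%) for active IKKβ minus Control, and 80 higher (0.566%) and 45 lower (0.318%) for combined minus Control. The licensing median was -0.45 for active IKKβ minus Control and -1.24 for combined minus Control, and the mitosis medians were -0.57 and 0.26. Mki67 illustrates the mitosis genes, with 121, 157 and 148 CPM in Control. Its active IKKβ libraries overlapped Control, and 2 of the 3 combined libraries lay above all Control libraries.

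Several antimicrobial genes were lower in the combined group, and S100a8 was the clearest of them. Of 32 tested S100 and antimicrobial genes, 6 were lower without overlap (background 7.54%) and 0 higher. By DESeq2 1 fell (background 0.552%), and the median log2 fold change was -0.63. This median moved to -0.30 without active IKKβ replicate 2, to -0.41 without active IKKβ replicate 3 and to -0.33 without combined replicate 2. S100a8 (chr3:90668978-90670035, plus strand, mm10), a calprotectin subunit, had 72, 123 and 185 CPM with active IKKβ and 10.8, 11.7 and 41.9 CPM in the combined group (-2.56 ± 0.50, DESeq2 adjusted p = 2.23e-04, edgeR adjusted p = 0.218). Combined replicate 3 was the highest of its group, and without it the difference was -3.48 with an edgeR adjusted p of 0.0323, the single edgeR call under any alternative tried. Its Control libraries had 1.4, 0.94 and 1.1 CPM, so all combined libraries remained above Control. S100a9, the partner subunit, had 172, 412 and 607 against 160.5, 35.9 and 144 CPM (-1.81 ± 0.61, DESeq2 adjusted p = 0.0995).

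Lcn2, which sequesters bacterial siderophores, had 15.4, 15.2 and 21.7 CPM with active IKKβ and 1.6, 6.62 and 5.39 CPM in the combined group, a difference of -1.94 ± 0.60 that was not called. Defb3, a beta-defensin, went from 0.851, 1.01 and 1.59 to 0.45, 0.29 and 0.157 CPM (-1.92). For each of them the groups did not overlap. Steap4, a metalloreductase, overlapped, with 62.5, 69.4 and 91.2 against 35.2, 51.6 and 67.1 CPM (-0.54). Lyz2, a lysozyme of myeloid cells, had 268, 26.4 and 40.1 against 11.6, 21.4 and 26.8 CPM, and the near-identical Lyz1, whose reads may be split with it, had 61.8, 2.17 and 3.01 against 0.4, 0.697 and 1.41 CPM. Both lysozyme genes, and the lectin Reg3g at 1432, 0 and 0.129 CPM, were high in active IKKβ replicate 1, the library rich in gastric transcripts. Without that library Reg3g, which was chosen after its values were seen, stood at 1.45 in place of -11.21. The neutrophil marker list, which contains both calprotectin genes, summed to 310, 497 and 768 CPM with active IKKβ and 190, 74.6 and 197 CPM in the combined group, and its part in these differences was not tested. Of its 16 members found, 2 (Elane and Fpr1) had 0 counts over all 6 libraries. Mpo had 13, Ngp 1 and Csf3r 26 counts, while Itgam had 1084, Stfa3 1227, Cxcr2 1568, S100a8 9574 and S100a9 32879. The calprotectin genes thus held most of the counts of the list, and its sum is not a separate measure from them.

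The small proline-rich genes Sprr2b and Sprr2i of the cornified envelope fell by DESeq2. Of 36 tested genes of the envelope and the epidermal differentiation complex, 33 were below 0, 3 were lower without overlap (background 7.54%), 2 fell by DESeq2, and the median log2 fold change was -0.88. The share without overlap was close to the background. Sprr2b had 3.88, 8.36 and 20.4 CPM with active IKKβ and 2.2, 0.581 and 1.1 CPM in the combined group (-3.06 ± 0.65, DESeq2 adjusted p = 0.00114, edgeR adjusted p = 0.251). Sprr2i had 3.73, 38.9 and 60.2 against 1.55, 0.29 and 3.45 CPM (-4.27, DESeq2 adjusted p = 0.00965). Active IKKβ replicate 1, which was poor in Krt4 and Krt13, was the lowest active IKKβ library for both genes but still above the combined libraries. Sprr2d, with 10.4, 52 and 94.3 against 5.5, 2.09 and 11 CPM, overlapped, and Sprr2f stood at -2.78. The Sprr2 genes are near-identical copies, so counts of single members are uncertain. The list's mean log2 CPM was 5.05, 6.82 and 6.78 with active IKKβ and 6.13, 3.42 and 4.85 in the combined group in replicate order, lowest within each group in the library poor in Krt4 and Krt13, and the part of the suprabasal share in this was not tested. Its median was -2.44 without combined replicate 1 and -0.48 without combined replicate 2, and with Stat3 loss minus Control, where 35 of 36 members were below 0, it was -0.80.

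Most keratins of wounded or activated epithelium had values below 0, with wide spread. Among 24 tested wound keratins and partners, 21 were below 0 and the median log2 fold change was -0.78. Of these genes 4 were lower without overlap (background 7.54%) and 2 fell by DESeq2 (background 0.552%). Krt6a had 932, 1747 and 1326 CPM with active IKKβ and 418, 339 and 735 CPM in the combined group (-1.42 ± 0.46, edgeR adjusted p = 0.427), without overlap and not called. Krt16 had 132, 234 and 242 against 32.9, 30.2 and 155 CPM (-1.48), and Krt6b had 314, 1160 and 1267 against 209.8, 63.6 and 586 CPM (-1.67). In both, combined replicate 3 lay above active IKKβ replicate 1. Krt6a and Krt6b are close copies whose reads may be misplaced. The called members were the low-level hair and nail keratins Krt75 (24.2, 4.3 and 9.8 against 2.6, 0.29 and 1.36 CPM, -3.15) and Krt84 (1.94, 2.22 and 3.95 against 0.701, 0.29 and 0.837 CPM, -2.13). The simple epithelial keratin Krt8, chosen after its values were seen, was at -4.22, with 28.3, 3.04 and 0.0859 CPM in the active IKKβ libraries and its highest level in the library rich in gastric transcripts, and it was at -1.47 without that library.

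The layer keratins overlapped between the groups. Krt5, of basal cells, had 13540, 10150 and 10170 CPM with active IKKβ and 8669, 13070 and 8997 CPM in the combined group (-0.14 ± 0.26), and Krt14, its partner, had 3600, 2619 and 2434 against 1765, 2783 and 2081 CPM (-0.38). Trp63, the basal transcription factor, stood at 0.09. Of 19 basal layer genes 0 lay without overlap in either direction, and their median was 0.00. Suprabasal Krt4 had 20780, 87510 and 74110 against 61690, 15390 and 78240 CPM (-0.23 ± 0.72) and Krt13 a log2 fold change of -0.12 ± 0.59, with low values in active IKKβ replicate 1 and combined replicate 2. The signs of both turned with sex as a covariate and in some omissions of a library.

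**Figure D4:**
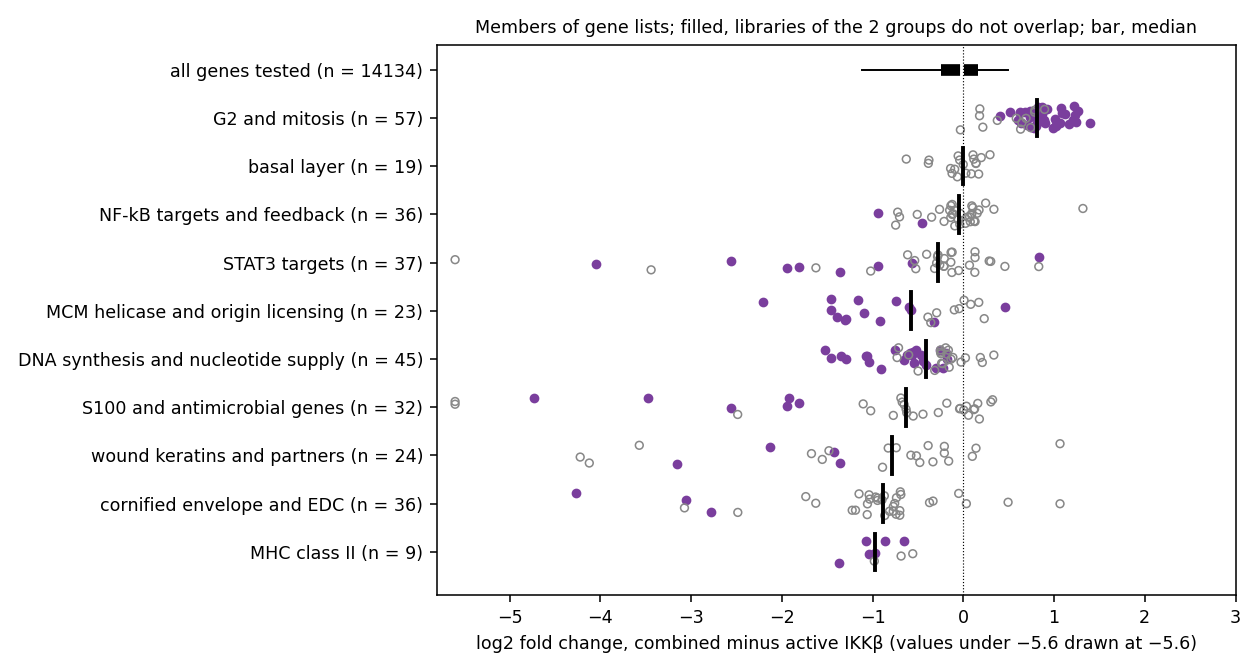
Log2 fold change (combined minus active IKKβ) of the tested members of 10 gene lists, 1 point a gene, filled where the libraries of the 2 groups do not overlap, with a bar at each list's median and values under -5.6 drawn at that limit. The top row gives all 14134 tested genes as a thin line from the 5th to the 95th percentile, a thick line over the middle 50% and a white mark at the median. Mitosis genes lie right of 0 except Cdc25b at -0.03, and licensing, DNA synthesis, envelope, wound keratin and MHC class II genes lie mostly left of it.

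Genes that answer to IL-6 family cytokines through STAT3 were lower in part. Of 37 tested STAT3 targets, 28 were below 0, 7 were lower without overlap (background 7.54%) and 1 higher (Birc5, background 7.12%). By DESeq2 1 fell (S100a8, background 0.552%). The median log2 fold change was -0.28, or -0.16 without active IKKβ replicate 3. Socs3, the feedback inhibitor, had 61.2, 37.1 and 54.1 CPM with active IKKβ and 39.2, 66.1 and 26.4 CPM in the combined group (-0.21 ± 0.30), with combined replicate 2 the highest of all 6, and its sign turned without combined replicate 3. Bcl3, an IκB family coactivator, had 60.6, 61.5 and 63 against 31.2, 21.6 and 43.4 CPM (-0.94 ± 0.34, edgeR adjusted p = 0.456). Its active IKKβ libraries were close together and all above the combined ones, and with Stat3 loss it had 8.51, 16.7 and 27.1 CPM against 30, 30.7 and 35.8 CPM in Control, again without overlap. Osmr, the oncostatin M receptor, had 19.9, 22.5 and 31.5 against 15.4, 17.8 and 16.6 CPM (-0.57), and Cntfr, a receptor subunit of the same family, stood at -1.27. Socs7 was higher without overlap at 0.20, the 1 such member among 18 tested JAK kinase and SOCS genes (background 7.12%). Il6 itself had 0 counts in all 6 libraries and did not pass the filter, and Il1b had 5, 10 and 3 counts with active IKKβ and 4, 4 and 0 in the combined group.

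No NF-κB feedback gene was called in either direction. Of 36 tested NF-κB targets, 2 were lower without overlap and 0 higher, DESeq2 called 0, and the median log2 fold change was -0.05, whose sign turned without replicate 1 of either group. Nfkbia, which encodes IκBα, had 264, 223 and 290.0 CPM with active IKKβ and 189, 281 and 287 CPM in the combined group (-0.04 ± 0.16), with 119, 125 and 116 CPM in Control. All 6 active IKKβ and combined libraries thus lay above Control for Nfkbia. Tnfaip3, the ubiquitin-editing inhibitor A20, stood at 0.34 ± 0.30 and Nfkb2 at -0.06 ± 0.16, with overlap. Signs of Nfkbia and Nfkb2 turned under library totals. The members without overlap were Bcl3 and Nfkb1, the latter with 140.3, 142 and 166 against 101, 95.1 and 131 CPM (-0.46 ± 0.13, edgeR adjusted p = 0.373). Zc3h12a, which encodes the RNase Regnase-1, was lower without overlap too, with 155, 145 and 126 against 103, 84.9 and 106 CPM (-0.54). It stands on the list of the IL-17 axis, where 1 of 13 tested genes was lower without overlap and 2 were higher. For the lower side this was close to the background of 7.54%. Tnfaip2 overlapped at -0.75. Ptgs2, the inducible cyclooxygenase, was the highest of the NF-κB list at 1.32 ± 0.61, with 2 of its 3 combined libraries above all active IKKβ libraries.

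Ccl20 was the chemokine gene that rose. Ccl20 (chr1:83116766-83119167, plus strand, mm10), which attracts CCR6-bearing lymphocytes and dendritic cells, had 3.36, 1.59 and 2.58 CPM with active IKKβ and 9.76, 10.6 and 12.6 CPM in the combined group (2.13 ± 0.59, DESeq2 adjusted p = 5.26e-04, edgeR adjusted p = 0.353). Every combined library was above every active IKKβ library, and Ccl20 was the largest rise among the DESeq2 calls. It was at 0.0559, 0.314 and 0 CPM in Control and 0.045, 0.0878 and 0.273 CPM with Stat3 loss, and the interaction was 1.96 (edgeR adjusted p = 0.9999). Cxcl1, a neutrophil attractant, had 2.6, 0.725 and 1.16 against 0.851, 3.71 and 1.15 CPM (0.34 ± 0.82), and its sign turned without combined replicate 2. Cxcl5 had 7.71, 4.3 and 8.42 against 1.05, 6.15 and 6.02 CPM (-0.63 ± 0.59). Cxcl12, mostly a product of stromal cells, stood at -1.47 with the highest level, 29.1 CPM, in active IKKβ replicate 3, and the fibroblast marker list summed to 834, 1090 and 1670 CPM with active IKKβ and 755, 1770 and 647 CPM in the combined group. Over 8 tested CXC and 11 tested CC chemokines, 0 and 1 were higher without overlap (background 7.12%) and 0 and 1 lower (background 7.54%). Ccl28 had 10.8 CPM in active IKKβ replicate 1 and at most 0.366 CPM in the other 5 libraries, so its value of -3.37 turned to 0.80 without that library.

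Cytokines of the TNF and IL-23 families were at low levels. Tnf had 4.92, 1.79 and 1.42 CPM with active IKKβ and 1.05, 3.83 and 2.15 CPM in the combined group (-0.21 ± 1.21), and its sign turned without replicate 1 of either group. Il23a, the p19 subunit of IL-23, had 4.44, 2.75 and 5.37 against 3.75, 6.73 and 5.02 CPM (0.30 ± 0.40), both above the 0.168, 0.209 and 0.152 CPM of Control. Among 21 tested TNF superfamily genes 5 were lower without overlap (background 7.54%) and 0 higher, and 1 fell by DESeq2 (background 0.552%). That gene was Tnfrsf21, death receptor 6, with 65.3, 66.4 and 68.1 against 37.7, 42.1 and 36.7 CPM (-0.78 ± 0.17, DESeq2 adjusted p = 0.0106). Tnfrsf1b, TNF receptor 2, stood at -1.29 and Tnfsf10, which encodes TRAIL, at -1.34, both without overlap and neither called. Irak3, an inhibitor of Toll-like and IL-1 receptor signals, had 7.14, 6.62 and 9.2 CPM with active IKKβ and 1.95, 2.9 and 2.09 CPM in the combined group (-1.72 ± 0.30, DESeq2 adjusted p = 2.80e-05, edgeR adjusted p = 0.175). Its combined libraries were close to Control, which had 2.07, 2.4 and 1.9 CPM.

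Genes of antigen presentation on MHC class II were lower as a list. All 9 tested members were below 0, 6 of them without overlap (background 7.54%). The median log2 fold change was -0.97, which moved to -1.49 without combined replicate 2 and to -0.64 without combined replicate 1. Ciita, the transactivator of the class II genes, had 4.11, 4.3 and 3.7 CPM with active IKKβ and 1.3, 1.22 and 2.15 CPM in the combined group (-1.37 ± 0.39, DESeq2 adjusted p = 0.0495). Cd74, the invariant chain, had 340.2, 341 and 286 against 68.9, 246 and 144 CPM (-1.08), and H2-Aa had 148, 128 and 116 against 33.2, 104 and 53.9 CPM (-1.04). For both, combined replicate 2 was near the active IKKβ libraries and replicate 1 far below. The class I gene H2-K1 stood at -0.27 without overlap, and 2 of 21 tested class I genes were lower in this way (background 7.54%). With Stat3 loss minus Control, 9 of 9 class II genes were also below 0 and 0 lay without overlap.

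Several markers of dendritic cells and macrophages were lower as well, and DESeq2 called 0 of either list. Of 8 tested dendritic and Langerhans markers 6 were lower without overlap (background 7.54%) and 1 was higher (background 7.12%), namely Epcam, which the squamous epithelium also expresses. Cd207, the langerin of Langerhans cells, had 21.1, 19.8 and 18.1 CPM with active IKKβ and 3.6, 16 and 8.32 CPM in the combined group (-1.08). Itgax, which encodes CD11c, had 10, 11.5 and 10.8 against 2.65, 8.01 and 5.49 CPM (-1.0). In both genes replicate 1 was the lowest combined library. Of 15 macrophage and monocyte markers 4 were lower without overlap (background 7.54%), among them Csf1r (-1.08) and Cx3cr1 (-1.22), and Itgam of myeloid cells stood at -1.43. Csf2rb, the shared receptor chain for GM-CSF, IL-3 and IL-5, chosen after its values were seen, had 12.6, 13.2 and 12.3 against 1.7, 6.68 and 4.13 CPM (-1.61 ± 0.44, DESeq2 adjusted p = 0.0382). T cell Cd3e overlapped at -1.51. The summed macrophage list was 508, 189 and 244 CPM with active IKKβ and 138, 185 and 207 CPM in the combined group. It includes Lyz2, which made up much of the sum in active IKKβ replicate 1, the library rich in gastric transcripts. Lists of other non-epithelial cells were also below 0 at the median. These were endothelium (-0.88, 10 of 10 members below 0), smooth muscle (-0.53, 8 of 8), fibroblast (-0.49, 11 of 11) and nerve and glia (-0.62, 9 of 10). Of their members 0, 0, 1 and 2 were lower without overlap. Lower values were thus not particular to the immune lists. The part of the dendritic cell and macrophage markers in the class II, calprotectin and Csf2rb values was not tested.

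Signals and metabolism outside inflammation added single genes. Wnt5a, a ligand of non-canonical Wnt signalling, had 15.2, 26.4 and 22.1 CPM with active IKKβ and 6.96, 9.23 and 6.91 CPM in the combined group (-1.47 ± 0.24, DESeq2 adjusted p = 2.80e-05, edgeR adjusted p = 0.175). All combined libraries lay below all active IKKβ libraries and above all 3 Control libraries, which had 4.81, 6.37 and 4.57 CPM. Wnk4, a kinase that regulates ion transporters, had 132, 179 and 177 against 68.1, 37 and 57.3 CPM (-1.58), and Acot11, an acyl-CoA thioesterase, had 13.1, 11.2 and 13.3 against 6.41, 6.5 and 7.33 CPM (-0.89). Cyp1b1, a cytochrome P450 of the aryl hydrocarbon receptor battery, had 2.51, 5.51 and 4.04 against 0.601, 0.697 and 0.419 CPM (-2.8 ± 0.53, DESeq2 adjusted p = 3.50e-04). Pfkfb3, which drives glycolysis through a fructose bisphosphate, had 15.3, 27.5 and 42.6 against 10.8, 10.6 and 13.3 CPM (-1.3). Among 29 hypoxia, glycolysis and angiogenesis genes 27 were below 0 and 5 were lower without overlap (background 7.54%), Epas1 among them at -0.64.

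Several genes outside mitosis were higher, among them enzymes of lipid and polyamine metabolism. Ces1d, a carboxylesterase, had 168, 112 and 113 CPM with active IKKβ and 345, 263 and 258 CPM in the combined group (1.14 ± 0.22, DESeq2 adjusted p = 9.22e-04, edgeR adjusted p = 0.218). Ppp2r3a, a regulatory subunit of the phosphatase PP2A, had the smallest p on the higher side, with 53.6, 56.1 and 55.5 against 90.1, 77.6 and 86.8 CPM (0.62). Its active IKKβ libraries differed by little and none reached a combined library. Paox, an oxidase of polyamines, had 8.79, 9.57 and 9.33 against 15.9, 18.6 and 14.9 CPM (0.83), Pafah1b3 stood at 0.55 and Acbd4, an acyl-CoA binding protein, at 0.62. The microsomal glutathione transferases Mgst1 (0.57) and Mgst3 (0.46) rose, while Txnrd1, thioredoxin reductase, was lower without overlap at -0.46. Of 35 oxidative and xenobiotic response genes 4 were higher and 6 lower without overlap (backgrounds 7.12% and 7.54%). Abca1, the cholesterol exporter, chosen after its values were seen, had 24.1, 17.9 and 28.1 against 51.8, 51 and 43.9 CPM (1.07) and stood at 1.16 with Stat3 loss minus Control.

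Several genes with very large negative values followed the library rich in gastric transcripts. Tff2, a trefoil peptide of gastric mucus, had 1657 CPM in active IKKβ replicate 1 and at most 0.918 CPM in the other 5 libraries, and its value of -9.93 turned to 0.33 without it. Clca4 and Muc4, called by DESeq2 and chosen after their values were seen, overlapped in spite of log2 fold changes of -8.71 and -7.72, which were -5.83 and -5.02 without that library. Clca4, a secreted regulator of chloride conductance, had 149, 14.8 and 0.043 CPM with active IKKβ and 0.15, 0.232 and 0 CPM in the combined group, and Muc4, a membrane mucin, had 105, 12 and 0.0859 against 0.15, 0.348 and 0.0523 CPM. Active IKKβ replicate 3 lay among the combined libraries for both. Neb, a giant protein of skeletal muscle, had 15.7, 19.2 and 1.76 against 1.25, 2.79 and 1.67 CPM, high in the pair of libraries rich in muscle transcripts, and 19 of 19 tested muscle genes were below 0 with 0 lacking overlap. Cfd, an adipocyte protease, had 12, 7.54 and 1.8 against 0.35, 0.058 and 0.0523 CPM. Interferon-stimulated genes had a median of -0.32 over 49 tested, 4 of them lower without overlap, close to the background of 7.54%. Their median was -0.08 without active IKKβ replicate 1, -0.55 without combined replicate 2 and -0.19 without combined replicate 3. The clock genes Arntl (22.7, 27.3 and 24.1 against 54.4, 19.6 and 80.6 CPM) and Cry2 (-0.57) varied widely between combined libraries, and the time of harvest is not given in the sources used here.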

How the data were processed

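PolyA RNA of 12 mouse oesophageal epithelium samples was sequenced, 3 in each of 4 groups named in the labels, and the deposited files give whole-number counts per gene, not normalized. Per the submitters' processing notes the authors used cutadapt 1.13, STAR, HTSeq 0.6.1p1, DESeq2 and the mm10 build; the step that used DESeq2 and the strand setting are not given in the sources used here. Near-identical or overlapping genes (Sprr2, Lce1, Krt6, Lyz and Defb families) are therefore uncertain.

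Genes were kept with edgeR's filterByExpr. Differences were tested with edgeR 4.0.16 (TMM, robust quasi-likelihood fit of 4 group means over all 12 libraries, with limma 3.58.1 in R 4.3.3) and Benjamini-Hochberg adjustment over all 14134 genes at 0.05; DESeq2 1.42.0 was the alternative test, and its adjusted p was NA for 37 genes. The mean log2 CPM of each list in a library used a prior count of 2. Log2 fold changes came from the edgeR fit unless DESeq2 is named, without that prior count. The fit was checked on simulated counts. The 6 libraries compared held 14.8 M to 25.6 M counts, so genes below 1 CPM rest on few counts. Pairs of the 6 libraries differed beyond sampling noise, with chi-square per degree of freedom from 26.1 to 250.0, so none was a copy. The replicate numbers were not used as pairs.

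The comparison and the 48 gene lists were chosen with earlier results of these data known. Of 1126 list entries, 1096 matched by symbol, 18 by an older symbol, 1 repeated another and 11 were not found. The text names the 12 genes in each direction with the smallest p, a mean log2 CPM of at least 1 and no overlap, up to 4 members of each list by p, up to 5 interaction genes and a fixed set of pathway genes. Named outside this rule, after their values were seen, were Abca1, Ccnb1, Ccne1, Ccne2, Cd207, Cdc25b, Cdc45, Cdc6, Cdt1, Clca4, Csf2rb, Csf3r, Cxcr2, Dbf4, Defb3, E2f1, Elane, Fpr1, Kcna7, Kif2c, Krt8, Mcm6, Mcm7, Mpo, Muc4, Neil3, Ngp, Prc1, Reg3g, Rpa3, Stfa3, Timeless and Top2a. Sequences came from RefSeq windows (GRCm38.p6), and gene positions from the GENCODE annotation of mm10. Alternatives varied scaling, filter, test, dispersion, sex covariate, replicate block and the libraries included.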

Additional observations from a re-analysis of the deposited data

Results flagged for a closer look

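The difference between the Stat3 contrasts with and without active IKKβ passed an adjusted p of 0.05 for 6 genes by DESeq2, and for 0 genes by edgeR, whose smallest adjusted p was 0.837 with 658 genes at an unadjusted p below 0.05. In each of these 6 genes the contrast within active IKKβ was the lower one. Stat3 loss and Control differ in Cre and in the ROSA26 allele, so the parts of these and of Stat3 in the interaction cannot be told apart. Values below are DESeq2 log2 interactions ± SE.

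S100a8, described above, had an interaction of -3.32 ± 0.73 (DESeq2 adjusted p = 0.0148), with 1.4, 0.94 and 1.1 CPM in Control against 1.89, 2.24 and 1.69 CPM with Stat3 loss. Irak3, the receptor signalling inhibitor, had -2.1 ± 0.44 (DESeq2 adjusted p = 0.00934), with 2.88, 3.51 and 1.75 CPM with Stat3 loss, so it was high in the active IKKβ group alone among the 4. Phf15, a chromatin reader subunit, had 15.4, 17.6 and 15.5 CPM in Control, 25.4, 25.7 and 18.5 with Stat3 loss, 20.4, 20.7 and 26 with active IKKβ and 14.5, 12.6 and 13.7 in the combined group (interaction -1.25 ± 0.25, DESeq2 adjusted p = 0.00911). Lpin1, a phosphatidate phosphatase, showed the same order of signs, with 9.84, 9.14 and 6.55 CPM in Control, 16.5, 16.5 and 12 with Stat3 loss, 8.94, 11.7 and 11.7 with active IKKβ and 6.76, 7.37 and 6.38 in the combined group (-1.49 ± 0.31, DESeq2 adjusted p = 0.00934). For Phf15 and Lpin1 the Stat3 contrast was above 0 without active IKKβ and below 0 with it, in both cases without overlap.

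Kcna7, a potassium channel gene, stayed near 1 CPM or less in all groups, with 0.224, 0.209 and 0.152 CPM in Control, 0.631, 0.659 and 0.872 with Stat3 loss, 0.946, 1.21 and 0.774 with active IKKβ and 0.15, 0.29 and 0.314 in the combined group (-3.87 ± 0.85, DESeq2 adjusted p = 0.0148), and was named after its values were seen. Sox6, a transcription factor, had 58.6, 56.6 and 60.9 CPM in Control against 173, 98.2 and 128 CPM with Stat3 loss, but 90, 82.3 and 92.1 CPM with active IKKβ against 101, 77 and 78.8 CPM in the combined group (-1.22 ± 0.28, DESeq2 adjusted p = 0.0407). Its libraries overlapped within active IKKβ.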

How the results depend on the processing

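Under scaling by DESeq2 size factors or library totals, with no count filter or a filter of 1 CPM in 3 libraries, without robust estimation, with a sex covariate, with a replicate block and on the 6 libraries alone, edgeR called 0 genes in both directions and 0 in the interaction where that was fitted. Leaving out each library in turn gave 0 higher and 0 to 1 lower edgeR calls, the call being S100a8 without combined replicate 3. The DESeq2 Wald test called 53 higher and 78 lower genes and 6 in the interaction. Its calls, examined in this way after seeing the data, ran from 8 to 110 higher and 26 to 116 lower when a library was left out, and on the 6 libraries alone they were 39 higher and 119 lower. The cause of these changes in the number of calls was not tested.

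The replicate numbers did not pair the libraries: the correlation of deviations between same-numbered libraries was 0 for replicate 1, -0.34 for replicate 2 and 0.27 for replicate 3, and 1 of 6 libraries correlated best with its own number. With the replicate block edgeR called 0 genes (smallest adjusted p = 0.218), and DESeq2 called 83 higher and 115 lower.

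Of the named genes, 16 changed sign under some setting. With library totals the log2 fold changes were 0.011 for Ikbkb, 0.0021 for Cdc25b, 0.0277 for Nfkbia, 0.0034 for Nfkb2 and 0.0036 for Sox6, where the median of all genes moved from -0.015 to 0.042. With the sex covariate they were 0.0382 for Krt4 and 0.0519 for Krt13. Leaving out a library gave the ranges Ikbkb (-0.0819 to 0.0205), Socs3 (-0.63 to 0.0633), Rpa3 (-0.0444 to 0.52), Cdc25b (-0.13 to 0.0641), Krt5 (-0.35 to 0.0122), Krt4 (-0.66 to 0.20), Krt13 (-0.47 to 0.27), Trp63 (-0.0108 to 0.15), Nfkbia (-0.13 to 0.15), Nfkb2 (-0.15 to 0.13), Tnf (-0.76 to 0.54), Cxcl1 (-0.58 to 1.0), Ccl28 (-3.93 to 0.80), Tff2 (-10.51 to 0.33), Sox6 (-0.16 to 0.0269) and Reg3g (-11.78 to 1.45), and the cause was not tested. Depth limits Stat4, Kcna7 and Defb3, whose levels lay below 2 CPM in all 6 libraries.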

Other observations

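Genes that set the balance of G1 and of cell survival were not described above. Of 21 tested cyclins and cell cycle brakes, 3 were higher and 3 lower without overlap, and DESeq2 called 0. Over all genes the shares without overlap were 7.12% higher and 7.54% lower. The list showed no common direction, and its higher members are not described here. Of the lower ones, Cdk6 had 6.9, 9.57 and 9.2 CPM with active IKKβ and 5.71, 2.5 and 5.55 CPM in the combined group (-0.90 ± 0.32, edgeR adjusted p = 0.456). Ccnd3, a D-type cyclin, had 45.9, 44.4 and 45.2 against 31.9, 39 and 35.9 CPM (-0.34), and E2f3 had 27.3, 21 and 24.8 against 18.8, 19 and 18 CPM (-0.39). In the survival list of 36 tested genes, 3 were higher and 3 lower without overlap, close to the background of 7.12% and 7.54% of all genes. Among the lower ones were the pro-apoptotic BH3-only genes Bcl2l11 and Bmf, with 11.5, 8.75 and 11.6 against 6.46, 5.4 and 5.23 CPM (-0.90) and 4.21, 5.12 and 8.77 against 2.45, 2.9 and 3.71 CPM (-1.0). Bax, the pore-forming effector of apoptosis, was higher without overlap by a small amount (61.3, 62 and 62 against 70.4, 73.7 and 69.2 CPM, 0.20). None of these was called by edgeR or DESeq2, and the medians of the lists were -0.02 and 0.02.

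Of 30 tested early response genes 1 was higher and 1 lower without overlap, under the shares of all genes (7.12% and 7.54%). Btg2, an antiproliferative gene, was the higher one (92.4, 101 and 80.8 against 116, 124 and 119 CPM, 0.39). Dusp5, a phosphatase of ERK, was the lower one (6.33, 5.9 and 5.59 against 4.55, 1.04 and 1.31 CPM, -1.36). Dusp6, another ERK phosphatase, overlapped at 0.59, as did the EGF receptor ligand genes Areg at -0.52 and Ereg at -0.74. Neither Btg2 nor Dusp5 was called. Cholesterol and fatty acid synthesis genes were below 0 in 29 of 31 tested members within active IKKβ and also in 29 of 31 with Stat3 loss minus Control, with medians of -0.22 and -0.42, but 1 and 0 of them lay without overlap. The IL-10 receptor gene Il10ra was lower without overlap in both backgrounds, with 6.33, 4.35 and 4.94 against 3.2, 2.21 and 3.45 CPM within active IKKβ and 2.79, 2.72 and 3.47 CPM in Control against 1.53, 1.76 and 0.818 CPM with Stat3 loss.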
